A study of Mus musculus with 12 samples.

Results

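The gasdermin genes of the mouse were followed in ear skin after injection of IL-17A, of IL-36γ or of both cytokines. The family was taken as the 9 genes Gsdma, Gsdma2, Gsdma3, Gsdmc, Gsdmc2, Gsdmc3, Gsdmc4, Gsdmd and Gsdme, matched by gene symbol to 9 of the 50684 Ensembl genes in the count table. Female C57BL/6 mice of 8 weeks received intradermal injections into the ear of 5 µL PBS, of 1 µg IL-17A, of 1 µg IL-36γ or of 1 µg of each cytokine, and ear RNA was taken on day 4. All animals were of 1 strain, and the PBS group shared the injection itself with the cytokine groups. Each group of the study held 5 mice, of which 3 were sequenced, giving 12 libraries. The RNA came from whole ear tissue, so that a gene's level reflects all its cells together.

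Gasdermins are proteins that form pores in membranes. In most members an amino-terminal pore-forming domain is held inactive by a carboxy-terminal domain until a protease cuts the linker between them. The freed domain assembles into pores in the plasma membrane, through which cytokines of the IL-1 family leave the cell and which can end in a lytic cell death called pyroptosis. In skin the A members are mostly known from the differentiating epidermis and the hair follicle, and gain-of-function mutations of Gsdma3 cause hair loss and skin inflammation in mice. Gsdmd is the member cut downstream of inflammasomes, multiprotein sensors of microbes and damage, and Gsdme can turn other forms of cell death into lysis.

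The 9 genes lie at 4 places in the genome (GRCm38, GENCODE vM21). Gsdma3 (chr11:98626360-98638226), Gsdma2 (chr11:98646759-98657964) and Gsdma (chr11:98664351-98677708) follow each other on the plus strand over 51.3 kb. Gsdmc (chr15:63775968-63808759), Gsdmc2 (chr15:63824346-63845177), Gsdmc3 (chr15:63857724-63878558) and Gsdmc4 (chr15:63891264-63912297) follow each other on the minus strand over 136 kb. Gsdmd (chr15:75862327-75867408, plus strand) lies alone on the same chromosome, and Gsdme (chr6:50188888-50263862, minus strand) is the longest member with 75.0 kb. No annotated exon of another gene overlapped an exon of any of the 9 genes.

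The copies within each cluster are close to one another, which bears on how far their reads can be told apart. The start of the coding region, 76 bases as in 1 sequencing read, is shown for the C cluster (GENCODE vM21 transcripts with the longest coding region, 5′ to 3′ on the minus strand of chromosome 15, each within 1 exon). Capitals mark the bases that differ from Gsdmc.
Gsdmc (chr15:63804517-63804592): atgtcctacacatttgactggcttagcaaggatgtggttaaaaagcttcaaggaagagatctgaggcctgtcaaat
Gsdmc2 (chr15:63835868-63835943): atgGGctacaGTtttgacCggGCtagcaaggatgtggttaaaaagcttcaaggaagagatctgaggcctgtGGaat
Gsdmc3 (chr15:63869222-63869297): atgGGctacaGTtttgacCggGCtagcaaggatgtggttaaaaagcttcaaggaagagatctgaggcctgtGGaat
Gsdmc4 (chr15:63902855-63902930): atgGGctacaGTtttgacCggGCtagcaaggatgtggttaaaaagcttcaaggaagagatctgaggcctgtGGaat

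Over this stretch Gsdmc2, Gsdmc3 and Gsdmc4 were identical and each differed from Gsdmc at 9 of 76 bases. Over the whole coding region, aligned end to end, Gsdmc2 and Gsdmc3 were 97.1% identical, Gsdmc4 was 93.0% identical to either of them, and Gsdmc was 82.8% to 83.8% identical to the other three. The A cluster is shown in the same way (plus strand of chromosome 11), with capitals where a base differs from Gsdma.
Gsdma (chr11:98666061-98666136): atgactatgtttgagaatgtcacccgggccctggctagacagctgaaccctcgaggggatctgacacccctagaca
Gsdma2 (chr11:98649054-98649129): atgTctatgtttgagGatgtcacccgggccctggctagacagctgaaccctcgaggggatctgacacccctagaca
Gsdma3 (chr11:98629352-98629427): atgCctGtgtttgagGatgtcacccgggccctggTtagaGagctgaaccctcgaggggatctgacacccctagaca

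Gsdma2 differed from Gsdma at 2 of these bases and Gsdma3 at 5, and over the whole coding region they were 89.7% and 85.8% identical to Gsdma. Between clusters, and against Gsdmd or Gsdme, coding identity was at most 52.9%. Every window of 76 bases in the annotated transcripts was then looked up in the transcripts of all other genes, on both strands. Of the windows of Gsdmc2, 38.9% also occurred in another gene, and the share was 35.6% for Gsdmc3, 28.1% for Gsdmc4 and 10.7% for Gsdmc. For Gsdma, Gsdma2 and Gsdma3 it was 3.32%, 2.59% and 0.186%, and no window of Gsdmd or Gsdme occurred elsewhere. How reads matching several genes were counted is not given in the sources used here, so counts of Gsdmc2, Gsdmc3 and Gsdmc4 are uncertain in how they divide between these genes.

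**Figure D1:**
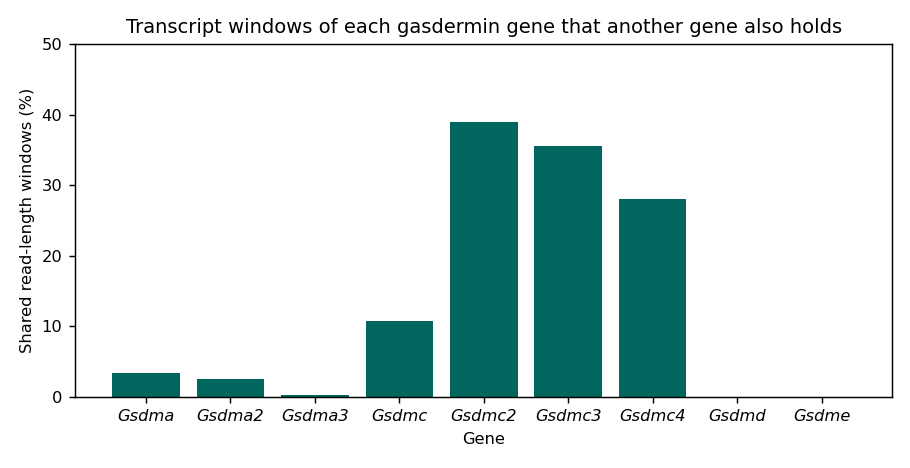
Share of 76-base transcript windows of each gasdermin gene (bars, in percent) that also occur, letter for letter, in an annotated transcript of another gene. The bars of Gsdmc2 (38.9%), Gsdmc3 (35.6%) and Gsdmc4 (28.1%) stand above that of Gsdmc (10.7%), and those of Gsdmd and Gsdme are at 0.

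Libraries held 25293468 to 34759293 counts, and no library was a copy of another. Levels are given as CPM, counts scaled to the library total after TMM adjustment. A gene was called changed at an adjusted p under 0.05 and more than a 2-fold difference (absolute log2 fold change above 1) in edgeR's quasi-likelihood test over all 19408 genes that passed a filter on low counts. Gsdmc3 and Gsdmc4 did not pass that filter, so that 7 of the 9 members were tested. Markers of the ear's tissue layers were present throughout: the summed level of 10 suprabasal keratinocyte markers lay between 21100 and 43900 CPM, and that of 6 skeletal muscle markers between 101 and 1990 CPM, with the PBS library of replicate 1 at 176 CPM against 1990 and 1670 CPM in the other two.

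In PBS-injected ears Gsdma was the most abundant gasdermin. Compared per kilobase of annotated exons, its level was 34.6 ± 9.36 CPM per kb (SD, n = 3), followed by Gsdmd with 5.78 ± 1.46 and Gsdmc with 4.78 ± 2.12 CPM per kb. The ranges of Gsdmd (4.36 to 7.27) and Gsdmc (2.34 to 6.1) overlapped, so that their order was within the spread between mice. Gsdma3, Gsdma2, Gsdme and Gsdmc2 were below 1 CPM per kb on average, with 0.887, 0.439, 0.274 and 0.0937 CPM per kb. Gsdmc4 and Gsdmc3 came last, and Gsdmc3 had no count in any PBS library.

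In both groups given IL-36γ Gsdmc passed Gsdmd in this order. After IL-17A alone the order was not settled: Gsdmc ranged from 7.15 to 32.4 CPM per kb, where Gsdmd ranged from 6.3 to 6.68 with the exons of all transcripts but from 8.35 to 8.87 with its longest transcript alone. Its level per length was 36.8 ± 10.4 CPM per kb with IL-36γ and 52.1 ± 7.18 CPM per kb with both cytokines, against 65.4 ± 8.22 and 75.2 ± 16.6 CPM per kb of Gsdma. As a share of the summed level per length of all 9 genes, Gsdmc made up 10% ± 3.86 in PBS, 31.6% ± 4.22 with IL-36γ and 36.6% ± 3.34 with both cytokines (SD, n = 3 each). Gsdma made up 73.3% ± 7.28, 57.3% ± 4.09 and 52.3% ± 4.70 in the same groups.

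**Figure D2:**
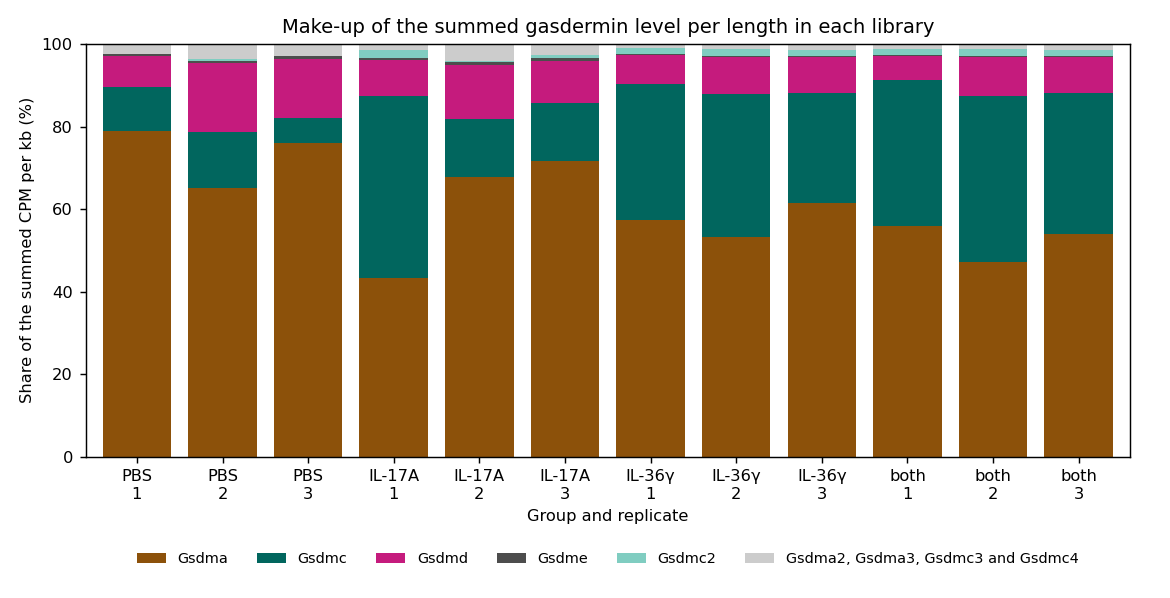
Make-up of the summed gasdermin level per length (CPM per kb of annotated exons, in percent) in each of the 12 libraries, with "both" for IL-17A + IL-36γ. Gsdma is the largest block in all libraries but the IL-17A library of replicate 1, and the Gsdmc block is at least 26.8% in each library that received IL-36γ against at most 13.6% in PBS.

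Gsdmc, the member that gives the C cluster its name and whose product can be cut by the caspase encoded by Casp8, rose with IL-36γ and with both cytokines. Its level was 14.7, 14.2 and 5.64 CPM in the PBS libraries of replicates 1 to 3, and 102, 104 and 59.8 CPM with IL-36γ. With both cytokines it was 142, 127 and 107 CPM. Every library that received IL-36γ was above every PBS library, and the 3 libraries with both cytokines were above the 3 with IL-36γ alone. The latter gap was narrow, with 107 against 104 CPM at its closest. The difference between these groups was not called (log2 fold change 0.50, SE 0.49, adjusted p = 0.662). The log2 fold change against PBS was 2.94 with IL-36γ (7.68-fold, SE 0.54, adjusted p = 0.00235) and 3.44 with both cytokines (10.9-fold, SE 0.55, adjusted p = 0.00044), and both calls held in each of the 19 alternatives.

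IL-17A alone left Gsdmc split between mice. It was 78.0 CPM in the IL-17A library of replicate 1, but 17.2 and 20.3 CPM in the other two. All 3 values were above the highest PBS value of 14.7 CPM, and the high one lay between the lowest and the other IL-36γ libraries. The fitted log2 fold change was 1.74 (SE 0.52, 95% interval 0.60 to 2.88), with an adjusted p of 0.0526 that missed the threshold. Without that library it was 0.67 (adjusted p = 0.294), whereas the gene was called in 6 of the 19 alternatives, among them DESeq2 (log2 fold change 1.73, adjusted p = 0.033). The same library had the highest summed level of neutrophil markers in its group (206 CPM, against 151 and 153 CPM) and of macrophage and monocyte markers (1130 CPM, against 816 and 926 CPM), whereas its summed suprabasal keratinocyte markers were the lowest (21800 CPM, against 28700 and 33700 CPM). It was also highest in its group for fibroblast markers (12800 CPM, against 9580 and 8080 CPM) and hair follicle markers (32.7 CPM, against 14.8 and 9.53 CPM), and its share of mitochondrial counts, 5.66%, was the highest of the 12 libraries (4.55% and 4.3% in the rest of its group). The part of cell make-up and RNA quality in the Gsdmc value was not tested.

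Gsdmc2, the next copy in the cluster, followed the same order at a lower level. Its counts were 4, 18 and 1 in the PBS libraries (0.111, 0.510 and 0.0303 CPM), and 126, 145 and 79 with IL-36γ (4.19, 4.42 and 2.72 CPM). With both cytokines it had 137, 159 and 128 counts (5.35, 5.82 and 4.28 CPM). The groups with IL-36γ did not overlap with PBS, where replicate 2 held most of the counts. The log2 fold change was 4.08 with IL-36γ (16.9-fold, SE 0.80, adjusted p = 0.00355) and 4.53 with both cytokines (23.0-fold, SE 0.80, adjusted p = 0.000839). Without the PBS library of replicate 2 these values were 5.63 and 6.08, so that the size of the fold depended on 1 library of few counts. With IL-17A alone the counts were 90, 7 and 25, again with replicate 1 apart from the other two, and overlapped with PBS (log2 fold change 2.77, SE 0.86, adjusted p = 0.0562). Without the library of replicate 1 this value was 1.40 (adjusted p = 0.333).

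Relative to Gsdmc, the counts of Gsdmc2 were steady where IL-36γ was given. There were 4.30 ± 0.226 Gsdmc2 counts per 100 Gsdmc counts with IL-36γ and 4.12 ± 0.418 with both cytokines (SD, n = 3 each). In PBS the ratio was 1.63 ± 1.70 and ranged from 0.538 to 3.59, and with IL-17A it was 3.55 ± 1.92, with a range of 1.35 to 4.95. These ratios rest on few Gsdmc2 counts in PBS and on 2 genes that share some of their 76-base windows.

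The last 2 copies of the cluster were barely detected. Gsdmc3 had no count in the 3 PBS libraries, which together held 96549669 counts. It had 2, 0 and 1 counts with IL-17A, 7, 4 and 1 with IL-36γ, and 5, 1 and 3 with both cytokines. Summed over a group, this was 0 in PBS (exact 95% Poisson upper bound 3.69), 12 with IL-36γ (6.20 to 21.0) and 9 with both cytokines (4.12 to 17.1). Against a floor of 3 counts for the PBS group, the group sums of IL-36γ and of both cytokines were above the floor, but single libraries of either were at 1 count. Gsdmc4 had 1 to 2 counts in the PBS and IL-17A libraries, 1 to 6 with IL-36γ and 3 to 4 with both cytokines. Its group sums of 4, 5, 9 and 10 had intervals that overlapped (1.09 to 10.2 in PBS, 4.80 to 18.4 with both). Intervals cover counting error only.

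Gsdma, the most abundant member, stands at the end of the A cluster and is a gene of differentiated epidermal cells. Its level was 124, 77.2 and 82.0 CPM with PBS, and 86.7, 94.1 and 119 CPM with IL-17A. With IL-36γ it was 200, 180 and 155 CPM, and with both cytokines 255, 168 and 192 CPM. The PBS and IL-17A libraries overlapped with each other (log2 fold change 0.08, SE 0.20, adjusted p = 0.807), and all 6 libraries with IL-36γ were above them. With both cytokines Gsdma rose 2.18-fold (log2 fold change 1.12, SE 0.20, adjusted p = 0.000876). With IL-36γ alone the log2 fold change of 0.92 (1.89-fold, SE 0.20, adjusted p = 0.00572) passed the p threshold but not the 2-fold limit. Both cytokines and IL-36γ alone differed by about the SE (log2 difference 0.20, SE 0.20, adjusted p = 0.661), and this difference was not called. The call with both cytokines was lost with scaling by library size alone (log2 fold change 0.98) and without the library of replicate 1 of that group (0.94). Conversely, IL-36γ alone against PBS was called without the PBS library of replicate 1 (1.17) or the IL-36γ library of replicate 3 (1.01). Keratinocyte markers differed between the groups too: the summed suprabasal markers were 21100 to 33000 CPM with PBS, 21800 to 33700 with IL-17A, 34000 to 43900 with IL-36γ and 29800 to 30700 CPM with both cytokines. The suprabasal sum was mostly Krt2 and Krt10, and its members moved in opposite directions. With both cytokines 3 of the 10 rose (Krt1, Ivl and Flg) and 1 fell (Flg2), against 7.35% and 6.06% of all genes. Krt1 went from 392 ± 120 CPM with PBS to 7250 ± 1330 with both cytokines, and Flg2 from 2560 ± 123 to 571 ± 269 CPM. The 6 basal markers summed to 9340 to 11300, 12200 to 14800, 13200 to 16000 and 16000 to 20000 CPM in the same order of groups. Their part in the Gsdma values was not tested.

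Unlike Gsdma, the other 2 A members were called in no comparison with PBS, although they lie next to it. Differences between the genes were not tested. Gsdma2 had 68, 32 and 42 counts with PBS (1.88, 0.906 and 1.27 CPM), and 13, 33 and 22 counts with IL-17A (0.488, 1.10 and 0.885 CPM). It had 38, 44 and 37 counts with IL-36γ and 45, 44 and 65 with both cytokines (1.76, 1.61 and 2.17 CPM). No comparison with PBS was called, and its log2 fold changes there were -0.71 with IL-17A (SE 0.31, adjusted p = 0.144), -0.07 with IL-36γ and 0.45 with both cytokines. Between both cytokines and IL-17A alone, where the libraries did not overlap, it was higher by 1.16 on the log2 scale (2.23-fold, SE 0.31, adjusted p = 0.014), and without the IL-17A library of replicate 1 that call was lost (log2 fold change 0.91).

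Gsdma3, the member whose mutations affect hair, had 42, 70 and 38 counts with PBS (1.16, 1.98 and 1.15 CPM). It had 33, 86 and 54 counts with IL-17A (1.24, 2.86 and 2.17 CPM), 33, 54 and 46 with IL-36γ and 53, 37 and 53 with both cytokines. All groups overlapped, and no comparison was called. Its log2 fold changes against PBS were 0.55 with IL-17A (95% interval -0.14 to 1.24), 0.01 with IL-36γ (-0.69 to 0.71) and 0.27 with both cytokines (-0.43 to 0.97), so that changes of up to about these bounds were not detectable at this depth. The summed level of 7 markers of the hair shaft and inner root sheath was 36.2 to 49.0 CPM with PBS and 9.53 to 32.7 CPM with IL-17A. It was 12.3 to 31.6 CPM with IL-36γ and 14.3 to 24.8 CPM with both cytokines, and none of these markers was at 0 in all libraries. The part of follicle RNA in the levels of the A members was not tested.

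Gsdmd, the gasdermin of the inflammasome route, had 10.4, 17.3 and 13.6 CPM with PBS and 15.6, 15.9 and 15.0 CPM with IL-17A. With IL-36γ it was at 21.5, 26.4 and 19.3 CPM, and with both cytokines at 23.6, 28.9 and 27.1 CPM. All 6 libraries with IL-36γ were above all 6 without it. The log2 fold change against PBS was 0.71 with IL-36γ (1.63-fold, SE 0.17, adjusted p = 0.00885) and 0.95 with both cytokines (1.93-fold, SE 0.17, adjusted p = 0.000786). Both passed the p threshold and stayed under the 2-fold limit, so that Gsdmd was not called, although the comparison of both cytokines with PBS passed the limit without the PBS library of replicate 2 (1.16) or the library of replicate 1 with both cytokines (1.03). With IL-17A the log2 fold change was 0.17 (95% interval -0.19 to 0.54). In the same groups the summed level of 8 macrophage and monocyte markers was 520 to 621 CPM with PBS, 816 to 1130 CPM with IL-17A, 1310 to 1450 CPM with IL-36γ and 1260 to 1390 CPM with both cytokines. Of 8 neutrophil markers, 2 rose with IL-17A, 4 with IL-36γ and 7 with both cytokines, against 1.07%, 5.11% and 7.35% of all genes. The median log2 fold changes of these markers were 1.41, 2.04 and 3.17, where those of all genes were 0.04, -0.02 and -0.03. The sum of the neutrophil markers was 107 to 134, 151 to 206, 173 to 195 and 186 to 326 CPM. With PBS it was mostly Il1r2, which was at 94.6 ± 7.13 CPM there and at 77.5 ± 12.8 CPM with both cytokines. In whole tissue, more cells of a type and more RNA per cell cannot be told apart, and the part of immune cells in the Gsdmd value was not tested.

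Gsdme, formerly Dfna5, forms pores of the same kind and is known for its part in hearing loss. It had 3.79, 3.28 and 3.39 CPM with PBS, 4.10, 4.92 and 4.26 CPM with IL-17A, and 3.59, 3.87 and 3.58 CPM with IL-36γ. With both cytokines it had 5.74, 4.13 and 5.22 CPM. The libraries with IL-17A, alone or together with IL-36γ, were all above those of PBS and of IL-36γ alone, an order that no other member showed. The differences were small: the log2 fold change against PBS was 0.34 with IL-17A (1.27-fold, SE 0.15, adjusted p = 0.136) and 0.53 with both cytokines (1.44-fold, SE 0.15, adjusted p = 0.0124), against 0.08 with IL-36γ (SE 0.15, adjusted p = 0.718). The difference between both cytokines and IL-36γ alone was 0.45 (SE 0.15, unadjusted p = 0.01, adjusted p = 0.203), and Gsdme was called in no comparison.

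**Figure D3:**
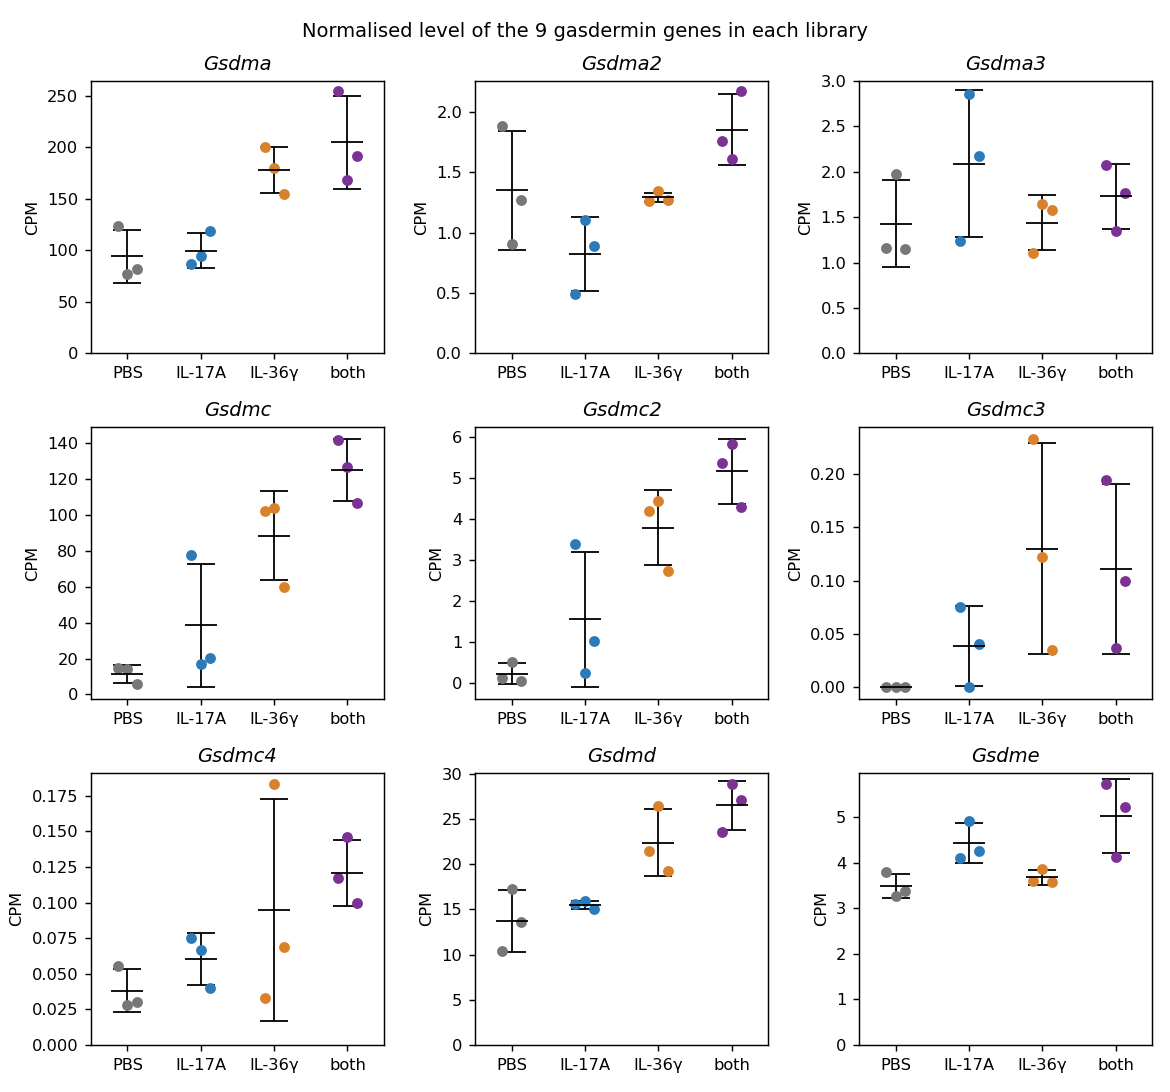
Level of each gasdermin gene (CPM, linear axes that differ between panels) in the 12 libraries, with "both" for IL-17A + IL-36γ. Points are single mice and bars the mean ± SD of 3. Gsdma, Gsdmc, Gsdmc2 and Gsdmd are higher in every library with IL-36γ than in every PBS library, the IL-17A library of replicate 1 stands high for Gsdmc (78.0 CPM) and Gsdmc2 (3.38 CPM), and Gsdme is higher where IL-17A was given.

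Counted over the family, the comparison of each cytokine with PBS asked how many members moved. With IL-17A alone, 0 of 7 tested members were called, where 1.07% of all genes rose and 1.03% fell; 4 members had an unadjusted p under 0.05, against 31% of all genes, and DESeq2 called 2, against 3.74%. With IL-36γ, 2 of 7 rose (Gsdmc and Gsdmc2) and none fell, against 5.11% of all genes that rose and 1.98% that fell. By adjusted p alone 4 of 7 were higher, against 17.3% of all genes. With both cytokines, 3 of 7 rose (Gsdma, Gsdmc and Gsdmc2) and none fell, against 7.35% and 6.06% of all genes, and by adjusted p alone 5 of 7 were higher, against 23.7%. The median log2 fold change of the 7 genes was 0.34, 0.71 and 0.95 in these 3 comparisons, where the median of all genes was 0.04, -0.02 and -0.03. The 3 comparisons share their PBS libraries. Gsdmc2 had 4, 18 and 1 counts there, so that it was tested mainly through libraries given a cytokine and had little room for a fall. When at least 10 counts were asked of every library, it left the test and Gsdmc alone was called with IL-36γ. Gsdmc3 and Gsdmc4 of the same cluster were not tested.

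**Figure D4:**
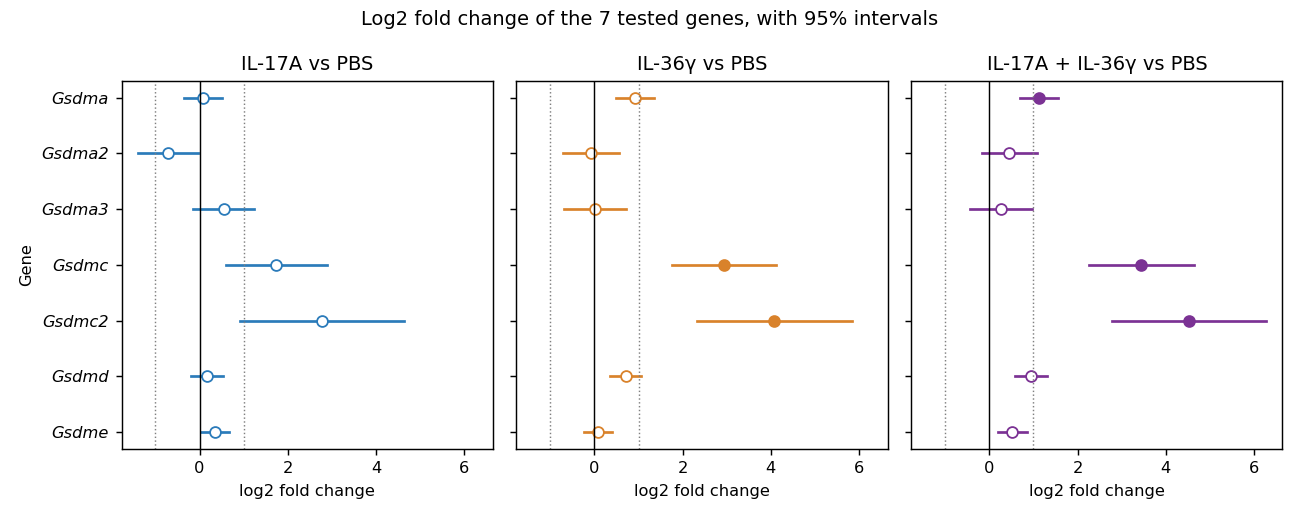
Log2 fold change against PBS of the 7 tested gasdermin genes in the 3 cytokine groups, with 95% intervals from edgeR. Filled points were called (adjusted p under 0.05 and more than 2-fold, dotted lines). Gsdmc and Gsdmc2 are called with IL-36γ (2.94 and 4.08) and with both cytokines (3.44 and 4.53), and Gsdma with both cytokines (1.12).

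The groups with cytokines were also compared with each other, to see what each cytokine added to the other. Adding IL-36γ to IL-17A raised 3 of 7 members and lowered none, against 4.46% and 4.49% of all genes. These were Gsdmc (log2 fold change 1.70, SE 0.51, adjusted p = 0.023), Gsdma (1.04, SE 0.20, adjusted p = 0.00257) and Gsdma2. By adjusted p alone 4 of 7 were higher, with Gsdmd at 0.78 (adjusted p = 0.00456), against 15.1% of all genes. The value of Gsdmc2 was 1.75 (SE 0.64, adjusted p = 0.0536). Without the IL-17A library of replicate 1 the log2 fold change of Gsdmc was 2.76 and that of Gsdmc2 3.12, both called, whereas Gsdma was at 0.97 and no longer called. The call of Gsdmc was lost without either of the other two IL-17A libraries, and those of Gsdmc (1.61) and Gsdma (0.85) without the library of replicate 1 with both cytokines.

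Adding IL-17A to IL-36γ called 0 of 7 members, where 0% of all genes rose and 0.0103% fell by the same rule. Only Gsdme had an unadjusted p under 0.05 in edgeR, against 15.1% of all genes, and DESeq2 called 0 of the members, against 0.827%. The estimates were 0.50 for Gsdmc (95% interval -0.57 to 1.57), 0.44 for Gsdmc2 (-0.84 to 1.73), 0.20 for Gsdma (-0.23 to 0.63) and 0.24 for Gsdmd (-0.11 to 0.60), all on the log2 scale. IL-36γ against IL-17A also called 0 of 7, against 1.25% of all genes that rose and 0.366% that fell; 3 members had an unadjusted p under 0.05, against 25% of all genes, and DESeq2 called 0, against 2.48%. By adjusted p alone 1 member was higher with IL-36γ, Gsdma with 0.84 (adjusted p = 0.027), against 4.37% of all genes. Without the IL-17A library of replicate 1, Gsdmc (2.25) and Gsdmc2 (2.67) were called as higher with IL-36γ.

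Whether the log2 effect of both cytokines differed from the sum of their single log2 effects was tested with the interaction term of the fit. On this scale a sum of effects is a product of fold changes, so the term does not test additivity in CPM. This term was called by adjusted p under 0.05 alone, with no limit on its size. None of the 7 members was called, against 0.129% of all genes with a positive and 0.423% with a negative interaction. Gsdma2 and Gsdmc2 had an unadjusted p under 0.05 in edgeR, as had 4373 of all 19408 tested genes. The term was -1.24 for Gsdmc (SE 0.71, adjusted p = 0.318) and -2.33 for Gsdmc2 (SE 1.05, adjusted p = 0.215), and without the IL-17A library of replicate 1 it was -0.16 and -0.94, so that its size depended on that library. For Gsdma2 it was 1.22 (SE 0.43, unadjusted p = 0.0139, adjusted p = 0.127), and this was the one member that DESeq2 called, against 13.7% of all genes. For Gsdma, Gsdmd and Gsdme it was 0.12, 0.07 and 0.11, each smaller than its standard error.

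Of 8 listed proteases that cut gasdermins, from caspases to the granule proteases of neutrophils and lymphocytes, 7 were tested. None was called with IL-17A, 3 rose with IL-36γ and none fell, and with both cytokines 3 rose and 1 fell. The shares of all genes were those given above (with IL-36γ 5.11% rose and 1.98% fell, with both cytokines 7.35% and 6.06%), which stand beside the counts of each list that follows. The median log2 fold change was 0.53, 0.89 and 1.00, where the median of all genes was 0.04, -0.02 and -0.03. The granzymes A and B of cytotoxic lymphocytes rose from low levels: Gzma from 0.0661 ± 0.0310 CPM with PBS to 1.2 ± 0.719 with IL-36γ and 2.13 ± 0.718 with both cytokines, and Gzmb from 0.322 ± 0.126 to 2.82 ± 1.12 and 4.97 ± 0.878 CPM. Gzma had 7 counts in all PBS libraries together. Casp4, which encodes the mouse caspase that senses bacterial lipopolysaccharide in the cytosol and cuts Gsdmd, rose from 4.68 ± 1.21 to 13.7 ± 1.39 and 15.9 ± 2.82 CPM (log2 fold change 1.55 and 1.76, adjusted p = 0.00107 and 0.000203). Ctsg, a granule protease of neutrophils and mast cells, fell with both cytokines from 2.21 ± 1.23 to 1.03 ± 0.329 CPM (log2 fold change -1.11, SE 0.38, adjusted p = 0.0328). The 6 T cell markers summed to 30.8 to 35.4 CPM with PBS, 26.7 to 29.8 CPM with IL-36γ and 25.3 to 26.3 CPM with both cytokines, but moved in opposite directions. Trac, of the alpha-beta T cell receptor, rose from 0.516 ± 0.0716 CPM to 1.86 ± 0.174 with IL-36γ and 2.35 ± 0.38 with both cytokines, and Trdc, of the gamma-delta receptor, fell with both cytokines from 10 ± 0.672 to 4.44 ± 0.816 CPM. The part of lymphocytes in the granzyme values was not tested.

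Of 14 inflammasome sensors and adaptors, 12 were tested. None was called with IL-17A, 5 rose with IL-36γ, among them Mefv, Aim2, Nlrp1a and Naip2, and with both cytokines 7 rose, these 4 and Nlrp3 among them, while Nlrp10 fell. The medians were 0.39, 0.99 and 1.05. Naip2, a sensor of bacterial secretion systems, rose from 7.74 ± 1.66 CPM to 18.3 ± 0.505 with IL-36γ and 19.7 ± 1.49 with both cytokines. Aim2, a sensor of cytosolic DNA, rose from 5.58 ± 0.970 to 12.2 ± 1.81 and 14.3 ± 2.98 CPM. Nlrp3 was spread widely in PBS (2.76 ± 2.54 CPM) and reached 11.8 ± 4.37 CPM with both cytokines (log2 fold change 2.09, SE 0.69, adjusted p = 0.027), and Mefv, which encodes pyrin, rose from 4.28 ± 2.42 to 9.10 ± 2.57 and 15.5 ± 1.51 CPM. Nlrp10, a sensor abundant in skin, went the other way, from 66.5 ± 1.53 CPM with PBS to 18.9 ± 7.38 with both cytokines (log2 fold change -1.82, SE 0.27, adjusted p = 0.000314), and its values with IL-17A (47.7 ± 4.91) and IL-36γ (39.5 ± 13.8) lay between.

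Among the 4 cytokines of the IL-1 family that leave cells through pores or on lysis (Il1a, Il1b, Il18 and Il33), Il1b alone was called, and with both cytokines alone. Its level was 5.05 ± 6.39 CPM with PBS, 27.2 ± 28.6 with IL-17A, 26.1 ± 13.4 with IL-36γ and 66.9 ± 25.7 with both (log2 fold change 3.72, SE 0.89, adjusted p = 0.00537). Within the IL-17A group it was highest, at 60.3 CPM, in the library that was also highest for Gsdmc. Within PBS it was highest, at 12.4 CPM, in replicate 2, where Gsdmc2 was highest too but Gsdmc was not. The medians of the 4 genes were 0.36, 0.55 and 0.51.

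Of 10 genes for pore modification, membrane rupture and repair (Ninj1, Ninj2, Zdhhc5, Zdhhc7, Zdhhc9, Chmp3, Chmp4b, Vps4a, Vps4b and Sdcbp), 9 were tested and none was called against PBS in any cytokine group, with medians of 0.21, 0.24 and 0.24. Of the 6 genes listed for gasdermin transcription and for guanylate-binding proteins, which help the noncanonical inflammasome, none was called with IL-17A, 3 rose with IL-36γ (Gbp2, Gbp3 and Gbp5), and with both cytokines Irf1 was among those that rose as well. Gbp2 rose from 15.2 ± 4.25 CPM to 56.7 ± 14.0 and 84.2 ± 61.6 CPM, the last with a spread from 36.7 to 154 CPM. The medians of this list were 0.25, 1.22 and 1.57.

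**Figure D5:**
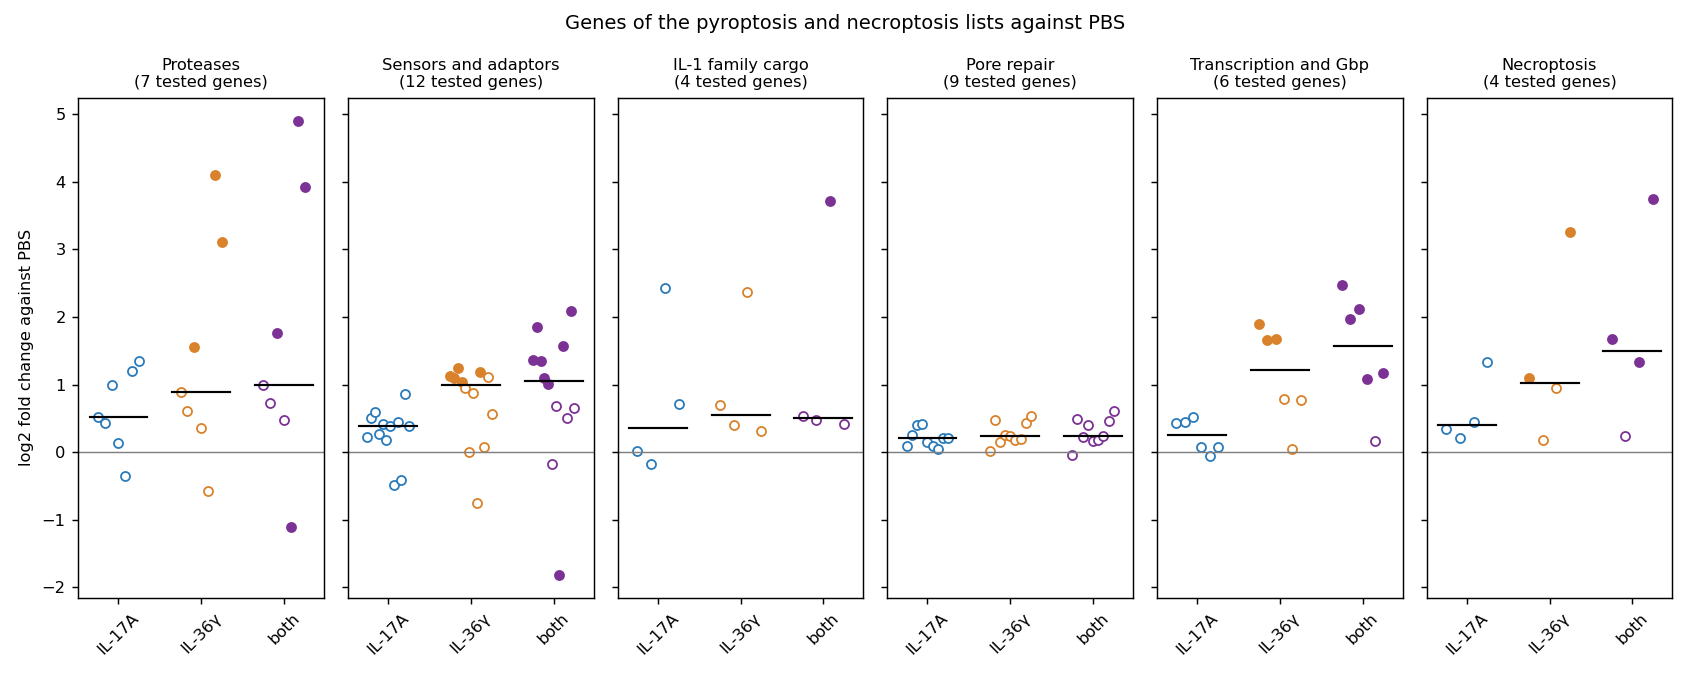
Log2 fold change against PBS of the tested genes of 6 lists around gasdermin pores, for IL-17A, IL-36γ and both cytokines. Each point is a gene, filled points were called, and black bars are list medians. No gene of these lists is called with IL-17A, and the list of pore modification, rupture and repair has none called in any group, with medians of 0.21 to 0.24.

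Genes whose profiles over the 12 libraries came closest to the called members were found by the root mean square difference of mean-centred log2 CPM, as a description. For Gsdmc these were Has3, a hyaluronan synthase, with 0.204, Rbp2, a retinol-binding protein, with 0.292, and Gjb6, a connexin, with 0.350, where the profile of Gsdmc itself had a root mean square of 1.52. For Gsdmc2 they were Slfn1 (0.465), Gm5150 (0.531) and Fpr2 (0.541), and for Gsdma Otub2 (0.0834), Thop1 (0.0991) and Lrrc28 (0.110). For Gsdma2 the differences of the nearest genes, Gm42987, Gm43339 and Grid2ip, were 0.282 to 0.287, against 0.521 for Gsdma2 itself.

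Promoter sequences of RefSeq (GRCm38.p6, 250 bases before to 50 after the start) were at hand for 3 of the 9 members, Gsdma3, Gsdmc3 and Gsdme. They were searched on both strands for an AP-1 motif (TGANTCA), an IRF motif (GAAANNGAA) and an NF-kB motif. The Gsdma3 promoter held 1 IRF and 1 NF-kB match, which did not overlap, and the promoters of Gsdmc3 and Gsdme held none of these motifs. Among all 32851 promoters in that collection, 7.81% held the AP-1, 8.56% the IRF and 8.46% the NF-kB motif. A match is a description of letters and no binding was measured.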

How the data were processed

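Ear RNA of 12 mice was sequenced as 76-base paired reads from stranded, ribosome-depleted libraries. The authors aligned reads with STAR 2.5.2b to mm10 and counted them per gene with featureCounts of Subread 1.5.1, and deposited these counts without normalization. The strand setting of the counting is not given in the sources used here. The authors also deposited DESeq2 comparison tables with fold changes and p-values, and of these only the gene symbols were used. Libraries were grouped from their labels. In edgeR 4.0.16, genes were filtered with filterByExpr (minimum count 10), scaled by TMM and fitted over the 4 group means (quasi-likelihood test, 8 residual degrees of freedom, no block), with Benjamini-Hochberg adjustment over 19408 genes. p-values measure the spread between these mice. Log2 CPM used a prior count of 2. On simulated data for IL-17A against PBS, 200 of 200 genes changed by a log2 value of 2 were recovered, and for the interaction 196. Unchanged genes that were called numbered 2 and 8. The simulation gave all genes the same spread and changed only genes above a minimum mean count. Recovery of genes that varied more between mice, such as Gsdmc and Gsdmc2, was not simulated. Alternatives were other scalings and filters, DESeq2 1.42.0, fits of the 2 groups alone, a replicate block and leaving out each library. Members and gene lists were chosen with earlier results of these data known. Named genes were all members, at most 6 called genes per list (by size of change), the 3 nearest profiles of each called member, neighbours of the loci, and marker genes chosen after their values were seen. These marker genes were Il1r2, Trac, Trdc, Krt1, Krt2, Krt10, Ivl, Flg and Flg2. Total counts per library, 25293468 to 34759293, set the precision of low genes. Some genes of the lists are not reported here.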

Additional observations from a re-analysis of the deposited data

How the results depend on the processing

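The number of gasdermin genes called was recomputed under other scalings, filters, tools and sample sets. Against PBS, IL-17A called 0 in the analysis reported, 2 with no filter on low counts (Gsdmc and Gsdmc2), 2 with DESeq2, 1 with the replicate block (Gsdmc), and 0 to 2 when single libraries were left out (2 without IL-17A replicate 2, 1 without IL-17A replicate 3 or PBS replicate 1). IL-36γ against PBS called 3, with Gsdma, without PBS replicate 1 or IL-36γ replicate 3, 1 when at least 10 counts were asked of every library, since Gsdmc2 then left the test, and 4 with no fold change threshold. Both cytokines against PBS called 5 with no fold change threshold. Both cytokines against IL-17A called 1 to 4 when single libraries were left out, the 1 (Gsdma2) without IL-17A + IL-36γ replicate 1. IL-36γ against IL-17A called 1 with no fold change threshold, and 0 to 2 when single libraries were left out, the 2 without IL-17A replicate 1. The interaction called 1 with DESeq2 (Gsdma2).

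Values that changed sign were all uncalled and near 0: there were 25 of them in 10 results, among 917 values compared, of which 862 kept direction and call, 22 gained a call and 8 lost it. For Gsdma3, IL-36γ against PBS became -0.002 with DESeq2-type size factors, -0.138 with library size only, and -0.008 with no filter or the stricter one. With library size only, Gsdma became -0.076 and Gsdmd -0.003 for IL-17A against PBS, and Gsdme -0.071 for IL-36γ against PBS. When single libraries were left out, the values of Gsdma3 ran from -0.124 to 0.315 and those of Gsdma2 from -0.291 to 0.253 for IL-36γ against PBS, those of Gsdma from -0.056 to 0.33 for IL-17A against PBS, and those of Gsdma3 from -0.523 to 0.046 for both against IL-17A. For the interaction they ran from -0.128 to 0.288 for Gsdma, -0.113 to 0.235 for Gsdmd, -0.001 to 0.271 for Gsdme and -0.579 to 0.055 for Gsdma3. Scaling by library size moved the median of all genes against PBS from 0.0425 to -0.128 (IL-17A), -0.015 to -0.165 (IL-36γ) and -0.0251 to -0.168 (both).

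Whether replicate numbers pair the libraries was not settled, and the main fit held no block. Correlations of same-numbered libraries ran from -0.199 to 0.352, and 9 of 18 were above 0.1 (median 0.097). For libraries of other numbers they ran from -0.503 to 0.364, and 9 of 36 were above 0.1 (median -0.0502). The block moved the count of all genes called in the interaction from 107 to 883. Over the alternatives, with the fold change threshold for all comparisons but the interaction, all genes called ran from 9 to 913 for IL-17A against PBS (407 reported), 937 to 1987 for IL-36γ (1377), 1830 to 3447 for both (2603), 1211 to 2246 for both against IL-17A (1737), 0 to 170 for both against IL-36γ (2), 69 to 525 for IL-36γ against IL-17A (313) and 1 to 2806 for the interaction (107). With no fold change threshold they were 2120, 5519, 8664, 6355, 4 and 1548. Gsdmc3 was called by DESeq2 and with no filter (log2 fold changes 5.02 with IL-36γ and 4.76 with both), from at most 7 counts per library. Levels per length used the exons of all transcripts, and the longest transcript in their place left Gsdma and Gsdmc as they were and changed Gsdma2, Gsdmd and Gsdme beyond their spread (Gsdme in PBS 0.754 CPM per kb in place of 0.274). Depth limited Gsdmc3 and Gsdmc4. With a library left out, the remaining 2 of its group were assumed to vary like the other groups.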

Other observations

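Beside the gasdermin route, the genes of necroptosis, a second lytic form of cell death, were listed as Ripk1, Ripk3, Mlkl and Zbp1. None was called with IL-17A, Mlkl and Zbp1 rose with IL-36γ, and Mlkl, Zbp1 and Ripk3 rose with both cytokines, with medians of 0.40, 1.02 and 1.5, where those of all genes were 0.04, -0.02 and -0.03 and 5.11% and 7.35% of all genes rose with IL-36γ and with both cytokines. Mlkl, the pore-forming executor of that pathway, was at 5.90 ± 0.467 CPM with PBS, 7.51 ± 1.28 with IL-17A, 12.6 ± 1.73 with IL-36γ and 18.9 ± 3.05 CPM with both cytokines (log2 fold change with both 1.67, SE 0.16, adjusted p = 2.13e-05). Zbp1, a sensor of unusual nucleic acids, was at 1.55 ± 1.18, 3.93 ± 2.34, 14.8 ± 5.11 and 20.9 ± 7.84 CPM in the same order. Pjvk, a more distant gasdermin family gene, stayed at or under 0.146 CPM in all libraries and did not pass the filter on low counts.

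The protein-coding genes nearest to the 2 clusters did not all move with them. Myc, 1790 kb from the C cluster, had log2 fold changes of 0.01 with IL-36γ (adjusted p = 0.93) and -0.02 with both cytokines (adjusted p = 0.879). Asap1, 175 kb beyond Gsdmc4, had 0.22 (adjusted p = 0.0431) and 0.27 (adjusted p = 0.0125). Gm12355, 0.699 kb from Gsdma3, had 0.76 with both cytokines (adjusted p = 0.0398) from 10 to 20 counts per library. Lrrc3c had no count, and A1bg had at most 3. Psmd3, a proteasome subunit that begins 4.85 kb beyond Gsdma, had log2 fold changes of 0.40 with IL-36γ (SE 0.12, adjusted p = 0.0292) and 0.50 with both cytokines (SE 0.12, adjusted p = 0.00583) and was not called. Csf3, which encodes the neutrophil growth factor G-CSF and lies 23.6 kb beyond Gsdma, rose with both cytokines (log2 fold change 3.72, SE 0.89, adjusted p = 0.00556) but had at most 20 counts in any library. Fam49b, 16.8 kb beyond Gsdmc4, rose with both cytokines (1.04, SE 0.11, adjusted p = 3.97e-05) and had 0.88 with IL-36γ (adjusted p = 0.000265), under the 2-fold limit.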
